A study of Mus musculus with 8 samples.

Results

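The proximal tubule genes described here are 37 genes of uptake and metabolism in the first segment of the nephron, chosen by name from knowledge of this segment: transporters, endocytic receptors, brush border proteins and metabolic enzymes. They were chosen with earlier results of these data known. A gene was found through the accession of its probes. All 37 had a named probe, 36 were tested among 13982 named genes, and Slc9a3, the apical sodium-proton exchanger, was not tested because its probe was well above background on 1 of 8 arrays. The samples were pairs of whole kidneys of C57BL/6 mouse embryos at embryonic day 16.5, with 4 wildtype controls (WT1 to WT4) and 4 knockouts (KO1 to KO4) in which the labels place the loss of Dot1, a histone H3 methyltransferase, in Six2-positive nephron progenitor cells. The Cre line and the deleted part of the gene are not given in the sources used here, and a whole kidney also holds stroma, vessels, blood and collecting duct, which do not come from these progenitors. Every sample was labelled red (Cy5) and hybridised with the same WT1 RNA in green (Cy3). Each value below is therefore a log2 ratio of a kidney sample over the WT1 reference, where 0 means the same level as in that reference and a difference of 1 means 2-fold, and values of single arrays are listed in the order of their numbers, 1 to 4.

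Six2-positive progenitors form all epithelial segments of the nephron, and the proximal tubule is the segment that recovers most of the filtered glucose, amino acids, phosphate, bicarbonate and protein. Uptake on its apical brush border is driven by sodium, while basolateral carriers pass the solutes on to the blood. Filtered proteins are taken up by the receptors megalin and cubilin. The segment also makes glucose and is fuelled largely by fatty acids. Its genes come on as nephrons mature, so at this embryonic stage the segment is young and still being added to. In RNA of a whole kidney, a change in the number of proximal tubule cells and a change in the RNA of a gene in each cell cannot be told apart.

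The arrays differed in background and the embryos in sex. The median signal of negative controls in red was between 58 and 61 scanner units on 6 arrays but 1361 on WT1 and 478.25 on KO1. The green log2 signal, from the same RNA on every array, had a median correlation across probes with those 6 arrays of 0.562 on WT1 and 0.904 on KO1, against 0.996 to 0.997 among the 6. Values on WT1 and KO1 are thus less certain, and not for dim genes alone. The green Pck1 signal, for example, was 5030.5 on WT1 and 807 to 1059.5 on the 6 arrays. Ddx3y, a Y-linked gene, was high on WT2 and on all 4 KO arrays (2.31 to 3.29) and lay between -0.11 and 0.08 on WT1, WT3 and WT4, so that sex was not balanced. All WT arrays lay in row 1 of the slide and all KO arrays in row 2, and row and group cannot be told apart. Of 8 genes checked for kidney identity (Pax2, Pax8, Six2, Wt1, Ret, Cdh16, Foxd1 and Nphs1), 8 were tested, each well above background on 7 or 8 arrays. Wt1 was lower in KO, with a difference of -0.40 (limma adjusted p = 0.0354). It read -0.15 to 0.14 on the WT arrays and -0.44 to -0.37 on the KO arrays.

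The comparison asked whether the expression of these genes differed in kidneys whose progenitors lacked Dot1. All 36 tested genes were higher in the mean of the KO arrays, by 0.05 (Clcn5) to 1.33 (Miox) with a median of 0.45, while 59.3% of all genes tested were higher and their median was 0.03. None of the 36 passed the test (limma, Benjamini-Hochberg adjusted p below 0.05 over all genes tested), against 2.15% of all genes in either direction and 1.61% higher in KO. At an unadjusted p below 0.05, 23 of the 36 were higher, against 11.1% of all genes. The smallest adjusted p values were 0.0507 for Slc7a7, 0.0562 for Dab2, 0.0659 for Slc27a2, 0.0674 for Pck1 and 0.0698 for Slc17a3. Leaving out 1 array let Dab2 pass without WT3 (adjusted p = 0.0431), Pck1 and Slc27a2 pass without KO1, and G6pc and Slc7a7 pass without KO2. In 11 of the 36 (30.6%) every KO array lay above every WT array, against 6.82% of all genes. This holds for the probe that stood for each gene, and a second kept probe of Ass1 and of Slc17a3 overlapped between the groups. The 36 genes vary together across the arrays, so they do not count as separate observations of a group difference. With the replicate number, which is also the slide column, as a block, 9 of the 36 rose, against 3.18% of all genes, and the account of the arrays below gives the values on which this rests.

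**Figure D1:**
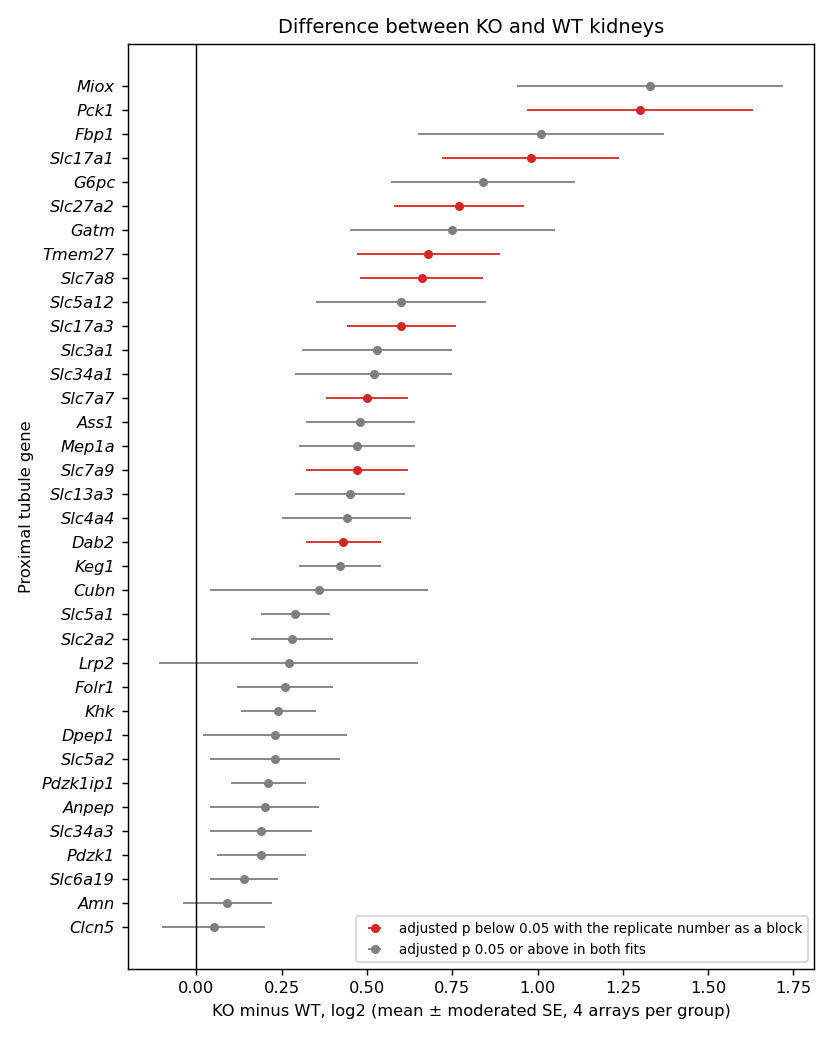
The mean KO minus WT difference in log2 ratio (x axis) of each of the 36 tested proximal tubule genes (y axis) with its moderated standard error, 4 arrays per group. All 36 points lie to the right of 0, from 0.05 for Clcn5 to 1.33 for Miox; red marks the 9 genes that passed with the replicate number as a block, and no gene passed without it.

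The 3 largest differences were those of the metabolic enzymes Miox, Pck1 and Fbp1. All 9 metabolic genes were higher in KO, with a median difference of 0.77. Of these, 8 were higher at an unadjusted p below 0.05 (all genes 11.1%). In 5, every KO array lay above every WT array (all genes 6.82%), and 0 passed over all genes. Pck1, phosphoenolpyruvate carboxykinase and a control point of glucose synthesis, read 0.01, -0.21, -0.19 and -0.94 on the WT arrays and 0.46, 0.28, 2.11 and 0.99 on the KO arrays. Every KO value was above every WT value, but KO1 and KO2 exceeded WT1 by less than the WT values differed among themselves. The difference was 1.30 ± 0.33 (SE, n = 4 per group; 2.45-fold; limma adjusted p = 0.0674). Before normalization, the red Pck1 signal was 1867, 1930.5 and 1488 scanner units on WT2 to WT4 and 2869, 6178 and 4897.5 on KO2 to KO4. The green signal of the same spots, from the shared reference, was 1037, 1059.5 and 903.5 on WT2 to WT4 and 858, 858 and 807 on KO2 to KO4. The higher ratios on KO2 to KO4 thus came with a higher red signal and a green signal that was lower than on WT2 to WT4. WT1 and KO1, the arrays with raised background, did not follow this. Their red signals were 17936.5 and 5814.5, and their green signals 5030.5 and 949, so WT1 had the highest red signal of all arrays.

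Miox, myo-inositol oxygenase, which starts the breakdown of inositol in this segment, read -0.20, -0.42, -0.49 and -1.16 on the WT arrays and 0.03, 0.01, 2.20 and 0.81 on the KO arrays. The KO values were thus spread over 2.19 log2 units, a 4.57-fold range, and the difference was 1.33 ± 0.39 (2.52-fold; adjusted p = 0.115). Without KO3 it was 0.85 ± 0.22, below the 0.91 of Pck1 without that array. Slc27a2, which takes up and activates long-chain fatty acids, had -0.42, -0.57, -0.26 and -0.95 in WT and -0.10, -0.07, 0.81 and 0.23 in KO. Its groups did not overlap and differed by 0.77 ± 0.19 (adjusted p = 0.0659). Ass1, argininosuccinate synthase of the arginine pathway, had -0.25, -0.19, -0.14 and -0.60 in WT and -0.09, -0.13, 0.62 and 0.34 in KO. Here WT3 and KO2 all but touched, and the difference was 0.48 ± 0.16 (adjusted p = 0.171). At a second Ass1 probe the groups overlapped, with KO2 (-0.20) below WT3 (-0.12), and the difference was 0.39. Keg1, a gene named for its expression in kidney, had 0.14, -0.17, 0.02 and -0.20 in WT and 0.21, 0.17, 0.54 and 0.56 in KO, a difference of 0.42 ± 0.12 (adjusted p = 0.0983), and KO4 was its highest array.

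The other 4 metabolic genes overlapped between the groups. Fbp1 and G6pc, which with Pck1 carry out steps specific to glucose synthesis, differed by 1.01 ± 0.36 (adjusted p = 0.194) and 0.84 ± 0.27 (adjusted p = 0.156). In both, KO2 (-0.76 and -0.29) lay below WT1 (-0.22 and 0.03). Gatm, which makes the precursor of creatine, differed by 0.75 ± 0.30 (adjusted p = 0.253) and spanned 1.32 log2 units among the WT arrays alone. Khk, which phosphorylates fructose, differed by 0.24 ± 0.11 (adjusted p = 0.365).

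Promoters are shown for Pck1 and Miox, which had the largest differences, and for Slc3a1, the 1 gene whose promoter held a binding word of HNF4, a nuclear receptor that acts in this segment. Each line gives the 250 bases before the RefSeq start of the gene on assembly GRCm38.p6, 5′ to 3′ on the plus strand, with capitals for the word searched.
Pck1 (chr2:173152823-173153072): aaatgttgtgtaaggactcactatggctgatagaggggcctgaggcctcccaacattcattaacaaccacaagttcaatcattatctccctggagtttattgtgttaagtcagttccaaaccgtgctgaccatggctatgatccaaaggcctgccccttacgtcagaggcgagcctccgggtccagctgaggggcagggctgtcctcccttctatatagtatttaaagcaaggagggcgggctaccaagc
Miox (chr15:89334223-89334472): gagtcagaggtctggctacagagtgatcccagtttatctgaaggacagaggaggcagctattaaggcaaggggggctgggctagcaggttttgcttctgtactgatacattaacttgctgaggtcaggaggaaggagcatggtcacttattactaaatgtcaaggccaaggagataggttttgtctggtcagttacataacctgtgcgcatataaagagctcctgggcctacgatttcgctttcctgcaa
Slc3a1 (chr17:85028097-85028346): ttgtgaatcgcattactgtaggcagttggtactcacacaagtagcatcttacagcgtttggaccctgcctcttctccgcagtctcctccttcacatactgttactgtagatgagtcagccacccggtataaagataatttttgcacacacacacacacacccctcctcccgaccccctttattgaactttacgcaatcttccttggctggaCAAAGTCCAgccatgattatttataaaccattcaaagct

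Both strands were searched for the HNF4 word CAAAGTCCA. Of the 37 genes, 34 had a promoter in the table. The word was found in 1 of these 34 (Slc3a1), against 0.451% of all 27025 genes in the table, and it is not in the Pck1 and Miox windows shown. A match is a stretch of letters, and binding was not measured.

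Of the 5 tested genes of phosphate and sodium transport, all 5 were higher in KO, with a median difference of 0.52. At an unadjusted p below 0.05, 4 were higher (all genes 11.1%), 2 did not overlap (all genes 6.82%) and 0 passed. Slc17a1, a sodium-dependent carrier of phosphate and urate, read -0.20, -0.45, -0.17 and -1.06 on the WT arrays and 0.26, -0.01, 1.32 and 0.46 on the KO arrays. Its neighbour in the same family, Slc17a3, had -0.06, -0.27, -0.25 and -0.65 in WT and 0.08, 0.07, 0.72 and 0.31 in KO. Both were separated by group, and both were lowest on WT4 and highest on KO3. They differed by 0.98 ± 0.26 (adjusted p = 0.0772) and 0.60 ± 0.16 (adjusted p = 0.0698), and a second Slc17a3 probe gave 0.37. At that second probe the groups overlapped, with KO2 (-0.14) below WT1 (0.04). With the software's ratios Slc17a3 differed by 0.99 ± 0.29 (adjusted p = 0.173). Slc4a4, the basolateral sodium-bicarbonate cotransporter, overlapped, with -0.08, -0.16, -0.24 and -0.59 in WT and -0.34, -0.01, 0.74 and 0.32 in KO (0.44 ± 0.19; adjusted p = 0.310). Its second kept probe gave 0.43, and a further one, not well above background on any array and not kept, gave -0.06. Slc34a1, the main apical phosphate carrier, had -0.04, 0.06, -0.04 and -0.62 in WT and -0.06, 0.06, 1.14 and 0.28 in KO. On arrays 1 and 2 its WT and KO values were nearly equal, and the difference of 0.52 ± 0.23 (adjusted p = 0.321) came from WT4, KO3 and KO4; without KO3 it was 0.26. Slc34a3, the second phosphate carrier of this family, differed by 0.19 ± 0.15 (0.06 without KO3).

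Of the 5 genes of sugar and carboxylate transport, all 5 were higher, with a median difference of 0.29. At an unadjusted p below 0.05, 4 were higher (all genes 11.1%), 1 did not overlap (all genes 6.82%) and 0 passed. Slc5a1, the high-affinity sodium-glucose cotransporter of the later proximal tubule, read 0.17, 0.09, -0.16 and 0.19 on the WT arrays and 0.22, 0.39, 0.39 and 0.45 on the KO arrays. It did not overlap, and unlike most members it was neither lowest on WT4 nor highest on KO3, with a difference of 0.29 ± 0.10 (adjusted p = 0.175). With the scanner software's log ratios it was 0.67 ± 0.12 (adjusted p = 0.0509). Its probe was dim, with red signals of 163 to 327 units on 6 arrays, and of 6486.5 on WT1 and 1135.5 on KO1, the arrays with raised background. Slc13a3, a carrier of dicarboxylates, had -0.05, -0.30, -0.24 and -0.67 in WT and -0.10, -0.18, 0.40 and 0.41 in KO (0.45 ± 0.16; adjusted p = 0.200). Slc5a12, a carrier of lactate and other monocarboxylates, had -0.05, -0.75, -0.69 and -0.97 in WT and -0.29, -0.52, 0.73 and 0.01 in KO (0.60 ± 0.25; adjusted p = 0.275), and its second probe gave 0.74. In both, KO1 lay below WT1. Slc5a2, the glucose carrier of the early proximal tubule, differed by 0.23 ± 0.19 (adjusted p = 0.646; 0.05 without KO3). Slc2a2, the basolateral glucose exit carrier, differed by 0.28 ± 0.12 (adjusted p = 0.306).

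Of the 6 genes of amino acid transport, all 6 were higher, with a median difference of 0.52. At an unadjusted p below 0.05, 5 were higher (all genes 11.1%), 2 did not overlap (all genes 6.82%) and 0 passed. Slc7a7, a basolateral exchanger of cationic amino acids, read -0.27, -0.19, -0.26 and -0.55 on the WT arrays and 0.13, -0.08, 0.44 and 0.24 on the KO arrays. Slc7a8, a basolateral exchanger of neutral amino acids, had -0.36, -0.19, -0.24 and -0.47 in WT and 0.00, 0.13, 1.03 and 0.20 in KO. Both were separated by group, and they differed by 0.50 ± 0.12 (adjusted p = 0.0507) and 0.66 ± 0.18 (adjusted p = 0.0995). The KO values of Slc7a8 were close together apart from KO3. Tmem27, collectrin, which brings neutral amino acid carriers to the brush border, had -0.38, -0.67, -0.16 and -0.67 in WT and 0.05, -0.33, 0.89 and 0.24 in KO. KO2 lay below WT3, and the difference was 0.68 ± 0.21 (adjusted p = 0.134), with 0.37 at a second probe. Slc7a9 and Slc3a1, the light and heavy subunits of the apical cystine carrier, differed by 0.47 ± 0.15 (adjusted p = 0.139) and 0.53 ± 0.22 (adjusted p = 0.274). Slc6a19, the apical carrier of neutral amino acids that collectrin serves, differed by 0.14 ± 0.10 (adjusted p = 0.575), by 0.41 ± 0.23 with the software's ratios and by 0.06 without WT2.

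The 6 genes of endocytosis were all higher, with a median difference of 0.26. At an unadjusted p below 0.05, 1 was higher (all genes 11.1%), 1 did not overlap (all genes 6.82%) and 0 passed. This one was Dab2, the adaptor that links the receptors to clathrin, which read -0.22, -0.16, 0.03 and -0.30 on the WT arrays and 0.23, 0.10, 0.49 and 0.26 on the KO arrays. Its 4 KO arrays lay above its 4 WT arrays, but KO2 (0.10) was only just above WT3 (0.03). The difference was 0.43 ± 0.11 (adjusted p = 0.0562), with ranges of 0.40 in KO and 0.33 in WT. Cubn, cubilin, had -0.04, -0.87, -0.39 and -1.37 in WT and -0.70, -0.87, 0.65 and -0.31 in KO (0.36 ± 0.32; adjusted p = 0.687; second probe 0.22; 0.04 without KO3 and 0.12 without WT4). Lrp2, megalin, had -0.05, -0.86, -0.55 and -1.61 in WT and -1.15, -1.10, 0.65 and -0.42 in KO (0.27 ± 0.38; adjusted p = 0.820; -0.12 without KO3 and -0.02 without WT4). The WT and KO values of both receptors overlapped over most of their range, with KO1 and KO2 within the WT range, and Lrp2 was lower on KO1 and KO2 than on WT1, WT2 or WT3. Folr1, the folate receptor, had -0.15, 0.11, -0.02 and -0.27 in WT and -0.09, 0.08, 0.59 and 0.13 in KO (0.26 ± 0.14; adjusted p = 0.424), and 0.03 at a second probe and 0.12 without KO3. Amn, the membrane anchor of cubilin, differed by 0.09 ± 0.13 (adjusted p = 0.821). Clcn5, a chloride-proton exchanger of endosomes, differed by 0.05 ± 0.15 (adjusted p = 0.929), and its other kept probes gave 0.31 and 0.12.

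Of the 5 scaffold and brush border peptidase genes, all 5 were higher, with a median of 0.21. At an unadjusted p below 0.05, 1 was higher (all genes 11.1%), 0 passed and each of the 5 overlapped. Mep1a, a subunit of the metalloprotease meprin, read -0.45, -0.51, -0.30 and -1.08 on the WT arrays and -0.36, -0.18, 0.25 and -0.19 on the KO arrays (0.47 ± 0.17; adjusted p = 0.199). Pdzk1, a scaffold that holds carriers at the brush border, had -0.12, -0.10, -0.25 and -0.54 in WT and -0.23, -0.26, 0.16 and 0.06 in KO (0.19 ± 0.13; adjusted p = 0.558). Pdzk1ip1, a small membrane protein that binds it, had -0.17, -0.37, -0.16 and -0.56 in WT and -0.21, -0.22, 0.11 and -0.12 in KO (0.21 ± 0.11; adjusted p = 0.441). For Pdzk1 the KO1 and KO2 values lay within the WT range. Dpep1, a membrane dipeptidase, differed by 0.23 ± 0.21 (0.04 without WT4) and Anpep, aminopeptidase N, by 0.20 ± 0.16 (0.03 without KO3). Without WT4 Mep1a differed by 0.30, Pdzk1 by 0.09 and Pdzk1ip1 by 0.12. Lrp2, Slc34a1 and the genes of each group given without single arrays were named after their values were seen. Over all members, 12 further kept probes of 11 genes gave differences of 0.03 to 0.74, each higher in KO.

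**Figure D2:**
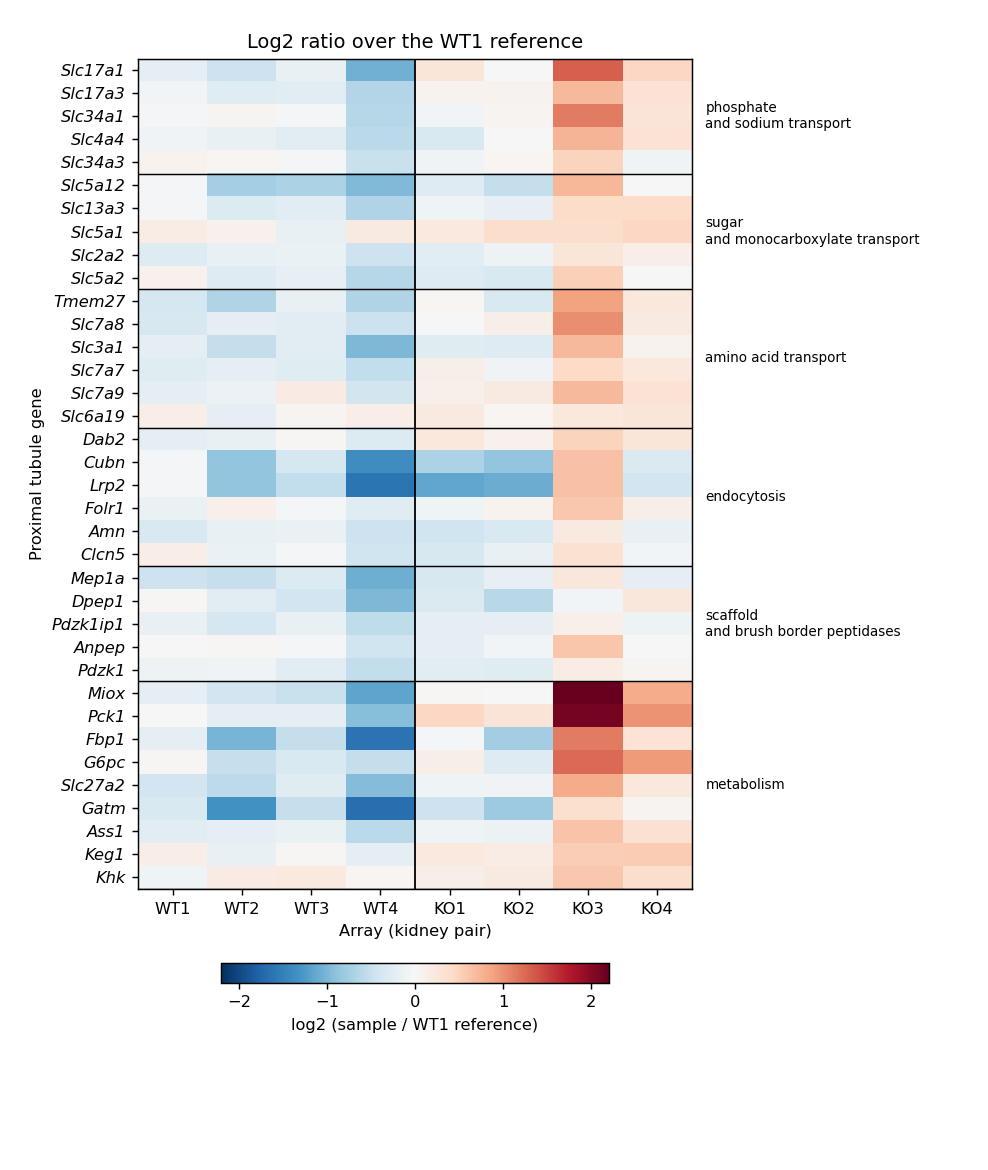
Log2 ratio over the WT1 reference (colour) of the 36 tested proximal tubule genes (rows, grouped by role) on each array (columns, WT left and KO right of the line). WT4 is the lowest of the 8 arrays in 33 rows and KO3 the highest in 31, while KO1 and KO2 resemble WT1 to WT3 in many rows.

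The same arrays were high or low in nearly every gene. KO3 was the highest of the 8 arrays in 31 of 36 genes (86.1%), against 20.7% of all genes tested, and WT4 was the lowest in 33 (91.7%), against 11.9%. The median log2 ratio of the 36 genes was -0.11, -0.21, -0.19 and -0.59 on WT1 to WT4 and -0.09, -0.10, 0.60 and 0.24 on KO1 to KO4. By this median KO1 and KO2 lay just above WT1, and KO3 and KO4 stood well above every WT array. KO3 was above all WT arrays in 35 genes and KO4 in 29, but KO1 and KO2 in 15 each, and each of these 2 arrays lay within the WT range in 21 genes. The KO arrays varied more among themselves than the WT arrays in 30 of 36 genes, with median SDs of 0.36 and 0.25, while over all genes the medians were 0.12 and 0.15. WT1, on which the same RNA was in both colours, had member values of -0.45 to 0.17.

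Without WT4 and KO3 the median difference was 0.20 (all genes 0.05), 28 of 36 genes were higher, against 63% of all genes, and 0 passed. At an unadjusted p below 0.05, 11 of the 36 were then higher, against 9.74% of all genes. Leaving out arrays can only add to the genes whose groups do not overlap, and here it added none to the 11, while the share of all genes became 13.9%. Without these 2 arrays Lrp2 differed by -0.40 and Cubn by -0.20. Taken singly, leaving out KO3 moved the difference of 17 of the 36 genes by over 1.5 times and leaving out WT4 that of 11, while each of the other 6 arrays did so for 5 or fewer genes. Without WT1 and KO1, the arrays with raised background, the median was 0.59 (all genes 0.02), 0 passed and 19 of 36 genes did not overlap, against 12.8% of all genes. At an unadjusted p below 0.05, 23 were then higher, against 10.1% of all genes. With sex as a term in the model the median was 0.39, 0 passed and 10 were higher at an unadjusted p below 0.05, against 7.88% of all genes.

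Genes outside the proximal tubule also differed between these arrays. Hbb-y, an embryonic globin of red cells, ran the other way: its log2 ratio was highest on WT4 (2.01) and lowest on KO3 (-1.69), with -0.31 to 0.60 on WT1 to WT3 and 0.68, 0.34 and -0.37 on KO1, KO2 and KO4. Another embryonic globin, Hbb-bh1, also had its highest value on WT4 (0.92) and its lowest on KO3 (-0.51). The adult globin Hba-a1 read -0.40 on WT4 and -0.21 on KO3, and was lowest on WT3 (-0.56) and highest on KO1 (0.79). Alas2, the heme synthesis enzyme of red cell precursors, was lowest on WT4 (-0.94) and highest on KO1 (0.16), with -0.43 on KO3. Of 5 erythroid markers listed, 4 were tested and 0 passed (1 higher and 1 lower at an unadjusted p below 0.05), and their median ran from -0.36 to 0.26 on the WT arrays and from -0.47 to 0.42 on the KO arrays. Of 5 tested collecting duct genes, 4 were lowest on WT4 and 4 highest on KO3, among them the water channel Aqp2 (-1.38 and 0.94), and 0 passed or had an unadjusted p below 0.05. Neither the globins nor the collecting duct genes belong to the proximal tubule, and their part in the proximal tubule result was not tested.

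**Figure D3:**
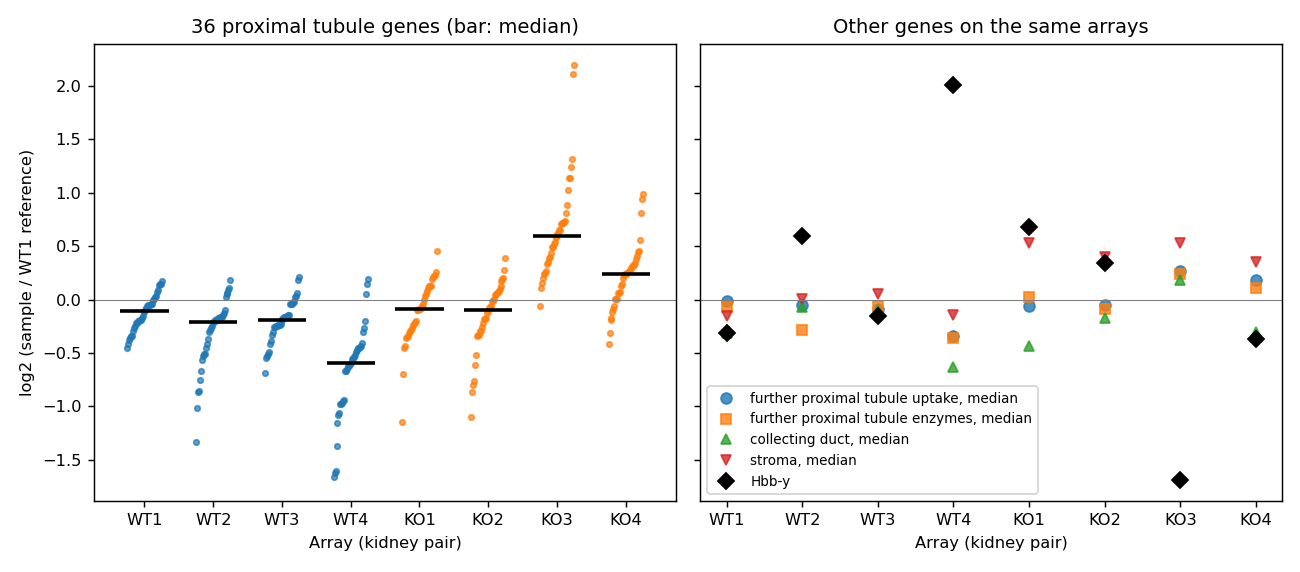
Left, log2 ratios of the 36 proximal tubule genes (points) on each array, with bars at the medians; right, medians of other gene lists and the single gene Hbb-y on the same arrays. The proximal tubule median is lowest on WT4 (-0.59) and highest on KO3 (0.60), Hbb-y is highest on WT4 (2.01) and lowest on KO3 (-1.69), and the stromal median is higher on all 4 KO arrays than on any WT array.

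Lists of other cell types gave the setting of these values. For scale, 1.61% of all genes tested passed as higher in KO and 2.15% passed in either direction. Of 6 stromal genes 4 rose (Pdgfra, Dcn, Lum and Col1a1), with medians of -0.15 to 0.05 on the WT arrays and 0.35 to 0.53 on the KO arrays, and of 5 tested macrophage genes 3 rose (Csf1r, Mrc1 and Cx3cr1), with medians of -0.17 to 0.03 and 0.21 to 0.38. Col1a1 passed in 7 of 23 alternatives and Csf1r in 4 of 23, and each lost its call when any of WT1, WT3, WT4, KO1, KO3 or KO4 was left out, Csf1r also without KO2. These medians were above every WT array on KO1 and KO2 as well. Of 6 nephron progenitor genes 1 fell, Cited1, whose difference was -2.72 (adjusted p = 2.79e-08). Wt1, from the kidney identity list and not counted in the cell type lists, also fell (-0.40, limma adjusted p = 0.0354). None of 6 podocyte genes (median difference 0.00), 7 genes of later tubule segments (loop of Henle and distal tubule, 0.05) or 5 endothelial genes (0.01) passed; at an unadjusted p below 0.05 these lists held 0, 4 (2 higher and 2 lower) and 1 gene. Liver makes several of the enzymes listed here, and of 4 tested liver genes Afp rose by 0.89 and Fgb fell by 0.50, while Alb and Apoa1 were not tested. The fit with sex as a term rests on WT2 alone among the WT arrays, and its calls are not read for these genes. The part of these cell types in the proximal tubule result was not tested.

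The values of same-numbered arrays showed where the difference lay. KO1 minus WT1 was above 0 in 20 of 36 genes, with a median of 0.05, and KO2 minus WT2 in 26, with a median of 0.18; of all genes, 62.9% and 57.4% were above 0. KO3 minus WT3 and KO4 minus WT4 were above 0 in all 36, with medians of 0.70 and 0.90, against 49.7% and 53.5% of all genes. Over all genes the 4 medians were 0.08, 0.04, 0.00 and 0.02. The proximal tubule difference was thus carried by numbers 3 and 4, which hold KO3 and WT4. In 19 of 36 genes all 4 differences were above 0, against 17.7% of all genes. For Pck1 they were 0.46, 0.49, 2.30 and 1.93, and for Miox 0.24, 0.43, 2.69 and 1.97. For Lrp2 they were -1.10, -0.24, 1.20 and 1.20, so that its direction turned between the numbers.

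With the replicate number as a block, 9 genes rose (limma, adjusted p below 0.05 over all genes tested). They were Slc27a2 (0.77 ± 0.14; adjusted p = 0.0142), Tmem27 (0.68 ± 0.12; 0.0142), Slc17a1 (0.98 ± 0.18; 0.0167), Dab2 (0.43 ± 0.08; 0.0209), Slc7a9 (0.47 ± 0.10; 0.0246), Pck1 (1.30 ± 0.27; 0.0279), Slc7a8 (0.66 ± 0.14; 0.0325), Slc7a7 (0.50 ± 0.11; 0.0382) and Slc17a3 (0.60 ± 0.14; 0.0408). They included 4 of the 6 amino acid transport genes, 2 carriers of the Slc17 family, the fatty acid carrier, the endocytic adaptor and 1 enzyme of glucose synthesis. Miox, with the largest difference, had an adjusted p of 0.0535. Of all genes, 3.18% rose in this fit. The 9 genes were higher in KO in 4 of 4 pairs, but the blocked test is computed from these same differences. Their shared sign is therefore no separate support. Lrp2, Amn and Clcn5 were higher in 2 of 4 pairs, with blocked adjusted p values of 0.719, 0.706 and 0.891. These pairs rest on the replicate number, and the labels state no litter or day that joins a WT and a KO sample.

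**Figure D4:**
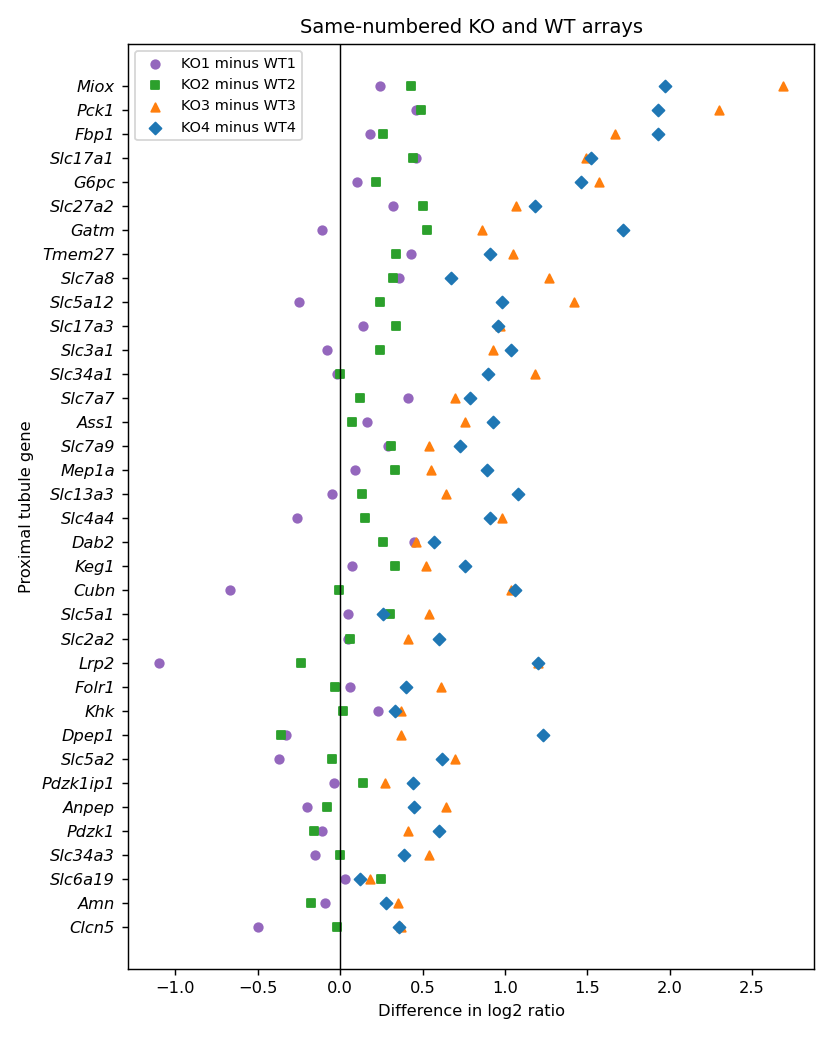
Difference in log2 ratio between same-numbered KO and WT arrays (x axis; 1 symbol for each replicate number) for the 36 proximal tubule genes (y axis, ordered by their mean difference). Numbers 3 and 4 lie to the right of 0 in all 36 genes, with medians of 0.70 and 0.90, and numbers 1 and 2 lie on both sides, with medians of 0.05 and 0.18.

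Transcription factors that act in this segment were looked at next. Of 9 tested regulators 2 rose: Nr1h4, the bile acid receptor FXR, by 0.98 ± 0.15 (adjusted p = 0.00833), and Maf, a bZIP factor, by 0.59 ± 0.13 (adjusted p = 0.0335). Nr1h4 read -0.07, -0.32, -0.37 and -0.58 on the WT arrays and 0.56, 0.28, 1.07 and 0.69 on the KO arrays, so that KO1 and KO2 also stood clear of the WT arrays. Maf had -0.44, -0.53, 0.08 and -0.15 in WT and 0.28, 0.24, 0.46 and 0.34 in KO. Hnf4a, a central regulator of this segment, did not pass, with a difference of 0.11 ± 0.11, and Hnf4g was not tested. The median of the 9 was 0.10, and 1.61% of all genes tested rose. Nr1h4 passed in 18 of 22 alternatives and Maf in 7 of 22, with the same direction in all 22. Nr1h4 did not pass with median centring, the red channel alone or without WT1, KO1, WT4 and KO3 together. Nor did it pass with sex as a term, a fit that rests on WT2 alone among the WT arrays.

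Of 23 further tested uptake genes 0 passed and 20 were higher, with a median of 0.16, while 59.3% of all genes were higher. At an unadjusted p below 0.05, 7 were higher and 0 lower, while 11.1% of all genes were higher. The largest of these differences was that of Slc22a6, the organic anion transporter OAT1 (0.77 ± 0.22; adjusted p = 0.103), and Slc5a11, an inositol carrier, had the smallest adjusted p (0.58 ± 0.16; adjusted p = 0.0872). Of 21 further metabolic and brush border enzymes 1 rose, while 1.61% of all genes did. It was Hao2, a peroxisomal oxidase (0.74 ± 0.16, limma adjusted p = 0.0362). In this list 20 were higher, with a median of 0.29. Hao2 passed in 6 of 22 alternatives, with the same direction in all 22. Acmsd, of tryptophan breakdown, differed by 0.86 ± 0.27 (adjusted p = 0.144). Cyp27b1, which activates vitamin D, ran from -1.83 on KO2 to 1.77 on KO3 and differed by 0.67 ± 0.58 (adjusted p = 0.668). The medians of both further lists were lowest on WT4 (-0.34 and -0.36) and highest on KO3 (0.27 and 0.24), as in the 36 genes. Slc22a6, Slc5a11, Acmsd and Cyp27b1 were named after their values were seen.

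**Figure D5:**
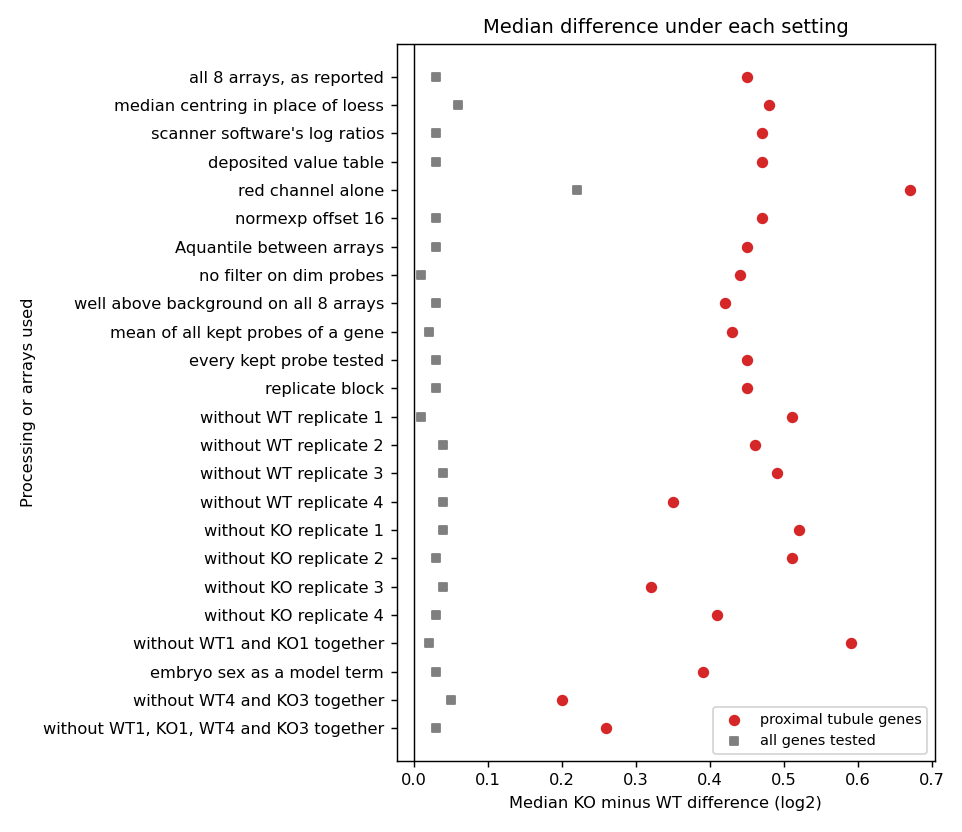
Median KO minus WT difference in log2 ratio (x axis) of the tested proximal tubule genes (red circles) and of all genes tested (grey squares) under each processing setting or set of arrays (y axis). The proximal tubule median lies between 0.20, without WT4 and KO3, and 0.67, with the red channel alone, where all genes shift by 0.22.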

How the data were processed

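Gene expression was measured on Agilent 2-colour arrays in 4 WT and 4 KO samples, grouped and numbered by their labels, which are biological replicates per the series' design text. Agilent Feature Extraction 10.7.3.1 produced the scanner files, per the submitters' processing notes. The deposited intensity columns used were median red and green spot signals and local background medians, on a linear scale without normalization, per the file headers. The deposited log10 ratio and the deposited value table hold the software's red over green after its own background subtraction and dye normalization, per the file headers, and were used as alternatives. Other deposited columns hold flags for spots above background, saturated or outlying, and the probe names, per the file headers.

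With R 4.3.3, limma 3.58.1 and data.table (version 1.17.8), signals were corrected with normexp (offset 50) and loess within arrays, with control spots at weight 0. Outlier readings (0.372%) were left out, 0 readings were saturated, and spots of a probe were averaged. Probes well above background in red on at least 4 of 8 arrays were kept. Names came from accessions matched to RefSeq GRCm38.p6 (27509 of 29150 probes with a RefSeq accession). This is not the build of the arrays, so that probe positions were not used. The brightest kept probe stood for a gene. KO and WT were compared with limma's lmFit and eBayes over 13982 genes with Benjamini-Hochberg adjustment at 0.05; SE is the moderated standard error. Precision is limited by the number of arrays. The fit without block or sex term was tested on simulated log2 ratios drawn independently for each gene. The steps before the fit, and genes that vary together, were not part of that test.

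The members, gene lists, promoter word and alternatives were chosen with earlier results of these data known. Values on every array are printed for members whose groups do not overlap, for the 3 with the smallest p in each role group and where probes differ in direction. Same-numbered samples deviated together over 13960 genes, with correlations of 0.138, 0.373, 0.257 and 0.304, each over the minimum of 0.1 set for a pairing. Differently numbered samples correlated at -0.56 (WT4 and KO3) to 0.369 (WT4 and KO1). WT2 and KO3 (0.309) and WT4 and KO2 (0.116) also lay over 0.1, so this minimum does not single out same-numbered samples. The pairing thus rests on the shared replicate number and slide column, not on a stated litter or day. Comparison of carrier proteins was planned, and protein sequences were not used here. Some planned results are not reported here.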

Additional observations from a re-analysis of the deposited data

Results flagged for a closer look

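In 72 groups of 4 arrays, each gene's WT and KO arrays taken apart, 2 held an array far from the other 3 by Dixon's criterion, both times WT4. It had a log2 ratio of -0.62 for Slc34a1, a gap of 0.849 of the range of the WT arrays, and of -0.44 for Anpep, a gap of 0.908. Chance marks about 1 in 20 such groups.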

How the results depend on the processing

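The median difference of the proximal tubule genes stayed above that of all genes under all alternatives run, at 0.20 to 0.67 against 0.45. The number of them that passed was 0 in most alternatives and 0 to 2 when leaving out 1 array: 1 without WT3 (Dab2), 2 without KO1 (Pck1 and Slc27a2) and 2 without KO2 (G6pc and Slc7a7). With the replicate block it was 9.

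The number of all genes that passed was 301. It was 0 with median centring (178 at an unadjusted p below 0.05), 123 with the software's ratios, 123 with the deposited table and 1 with the red channel alone (106 at an unadjusted p below 0.05). It was 556 with the replicate block, 12 with sex as a term and 83 to 345 when leaving out 1 array: 187 without WT1, 150 without WT2, 129 without WT4, 141 without KO2, 198 without KO3 and 83 without KO4, each over 1.5 times fewer. Without WT4 and KO3 it was 70, and without WT1, KO1, WT4 and KO3 it was 51; these last 2 alternatives were added after seeing the data. The causes of these changes were not tested.

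The sign of a gene's difference turned in 21 of the values recomputed. With the red channel alone Clcn5 was -0.61 and Dpep1 -0.13. Without WT4 Clcn5 was -0.05 and Lrp2 -0.02. Without KO3 Amn was -0.04, Clcn5 -0.08 and Lrp2 -0.12; leaving out any 1 array gave up to 0.17, 0.15 and 0.50 for these 3. With sex as a term, which sets the KO arrays against WT2 alone, Amn was -0.02 and the median was 0.39. Without WT4 and KO3 Amn was -0.09, Anpep -0.08, Clcn5 -0.18, Cubn -0.20, Dpep1 just under 0, rounded to 0, Lrp2 -0.40, Slc34a3 -0.07 and Slc5a2 -0.08. Without WT1, KO1, WT4 and KO3 Amn was -0.09, Anpep -0.02, Clcn5 -0.02, Lrp2 -0.05 and Slc34a3 -0.03. Of the other values of single genes, 784 kept their direction and their side of the threshold and 14 kept their direction and newly passed. Sizes moved more: over 1.5 times in 21 genes with the red channel alone, in 3 with the software's ratios or the deposited table, in 17 without KO3 and in 11 without WT4. Aquantile leaves log ratios as they are, so it repeats the reported values. Values on WT1 and KO1, the arrays with raised background, are less certain, and not for dim genes alone.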
